A study of Mus musculus with 4 samples.

Results

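The growth hormone, STAT5 and IGF1 axis of the liver was followed here through 10 genes, chosen by name: Ghr, Stat5a, Stat5b, Igf1, Igfals, Socs2, Socs3, Cish, Bcl6 and Cux2. All 10 were among the 46603 genes of the count table, and 9 of them were among the 13001 genes that passed edgeR's filter on low counts. Total liver RNA was sequenced from 4 male mice, all HuR flox/flox on the C57BL/6 J strain and all fed for 4 weeks a Western diet with fructose and glucose in the drinking water (WDSW). Mice 1 and 2 are the control group and had received AAV8-TBGP-GFP, whereas mice 3 and 4 are labelled HuR hKO and had received AAV8-TBGP-Cre through the tail vein. HuR, encoded by Elavl1, is a protein that binds RNA, and TBGP is the thyroxine-binding globulin promoter, which is active in hepatocytes, so that the other cells of the liver keep HuR. The age of the mice is not given in the sources used here, and nothing says whether the mice of a group came from separate litters or cages. The p-values rest on these 4 mice alone, with a spread for each gene that edgeR's test partly borrows from the other genes.

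Growth hormone reaches the liver in pulses and binds its receptor, GHR, which carries the kinase JAK2. JAK2 phosphorylates STAT5A and STAT5B, and these enter the nucleus and switch on genes such as Igf1, the hormone that carries many of the effects of growth hormone to the body. The suppressors SOCS2, CIS (encoded by Cish) and SOCS3 are induced by cytokine signals and shut them down again. The pattern of pulses differs between the sexes in rodents and gives male and female livers different sets of genes, in which the repressors BCL6, more abundant in males, and CUX2, more abundant in females, take part.

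Igf1, Stat5b and Ghr ranged over 1.04-fold, 1.10-fold and 1.29-fold in the 4 livers, whereas Cish and Bcl6 differed more between the 2 control mice than between the groups. No member had an adjusted p-value under 0.05 in edgeR's quasi-likelihood test, which held for 0.0231% of all genes tested. At an unadjusted p under 0.05, 0 of 9 members were higher in the libraries labelled HuR hKO and 1, Bcl6, was lower. Over all genes tested, 4.04% passed that threshold as higher and 3.39% as lower, 7.43% in all, so that 1 of 9 is near the background. Bcl6 was also the 1 member with a fitted fold of at least 1.8 beside that p, which 2.12% of all genes tested reached. In CPM the groups did not overlap for 3 of 9 members (Ghr, Igfals and Igf1), against 38.1% of all genes tested.

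The targeted gene went against its label. Elavl1 had 28.4 and 25.9 CPM (counts divided by library size, here scaled by edgeR's TMM factors) in control mice 1 and 2, and 37.7 and 34.4 CPM in mice 3 and 4. Neither library labelled HuR hKO fell below a control, and the log2 fold change was 0.41 (SE 0.14, unadjusted p = 0.016, adjusted p = 0.55, edgeR). Leaving out each mouse in turn gave 0.33 to 0.48. Exons of Elavl1 overlap Ccl25, a gene on the opposite strand with 33 to 57 counts a library, and the use of strand in counting is not given. The counts cover the whole gene, in which reads over a floxed part cannot be told from the rest, and in bulk liver the other cells keep their Elavl1 RNA. The cause of the higher values in both libraries labelled HuR hKO was not tested. Directions below are therefore those of the libraries labelled HuR hKO against the control libraries. The libraries held 13032095 to 19715577 counts, and a count of 0 would have allowed up to 0.159 to 0.226 CPM. In a bulk sample, fewer cells of a type and less RNA per cell cannot be told apart. Of 6 hepatocyte markers, none passed an unadjusted p of 0.05, and their summed level was 58705 to 66227 CPM. The sex in the labels was matched by the RNA, with at most 8 counts of Xist and at least 653 counts of Ddx3y, a gene of the Y chromosome, in each library.

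STAT5 binds DNA at the palindrome TTCNNNGAA, which reads the same on both strands. These letters were searched in RefSeq windows (GRCm38.p6) from 250 bases before to 50 bases after each annotated start site. Windows were given for 9 of the 10 members, 16 windows in all, and Socs2, for which none was given, was not searched. The motif stood in 6 windows of 4 members (Cish, Socs3, Igfals and Bcl6), against 8.30% of all 32851 windows. The stretches below show where the letters sit in the genes whose levels are described next. Each is written 5′ to 3′ on the strand of the gene, with the motif in capitals, and the position of the first base is counted from the start site.
Cish, chr9:107296654-107296683, plus strand, motifs at 1 and 12: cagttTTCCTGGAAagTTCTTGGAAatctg
Socs3, chr11:117969502-117969530, minus strand, motif at -154: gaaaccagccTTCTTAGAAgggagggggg
Igfals, chr17:24877598-24877626, plus strand, motif at -236: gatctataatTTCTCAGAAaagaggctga
Igfals, second window, chr17:24878163-24878191, plus strand, motif at -58: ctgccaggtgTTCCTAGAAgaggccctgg
Bcl6, chr16:23988952-23988980, minus strand, motif at -118: agcaaattagTTCTCAGAAttccagaggc
Bcl6, inner start, chr16:23981433-23981461, minus strand, motif at -168: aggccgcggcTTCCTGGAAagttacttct
Bcl6, inner start, chr16:23981387-23981415, minus strand, motif at -122: ggcaggagtgTTCTGTGAAatccttagag
Bcl6, inner start, chr16:23981353-23981381, minus strand, motif at -88: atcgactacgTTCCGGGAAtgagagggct
Cish held 2 copies within 20 bases, and 0.457% of all windows held 2 or more. The window at an inner start of Bcl6 held 3 copies, and 0.0335% of all windows held 3 or more. For this window and that of Socs3, the bases shortly after the start were not found as an unbroken stretch in an annotated transcript of the gene. A match of letters is a description of the window and not a measured binding site. The Cish motifs lie in the first exon of the annotated transcript Cish-201, whose start is upstream of the RefSeq start, and the other stretches lie before a start site or inside an intron.

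**Figure D1:**
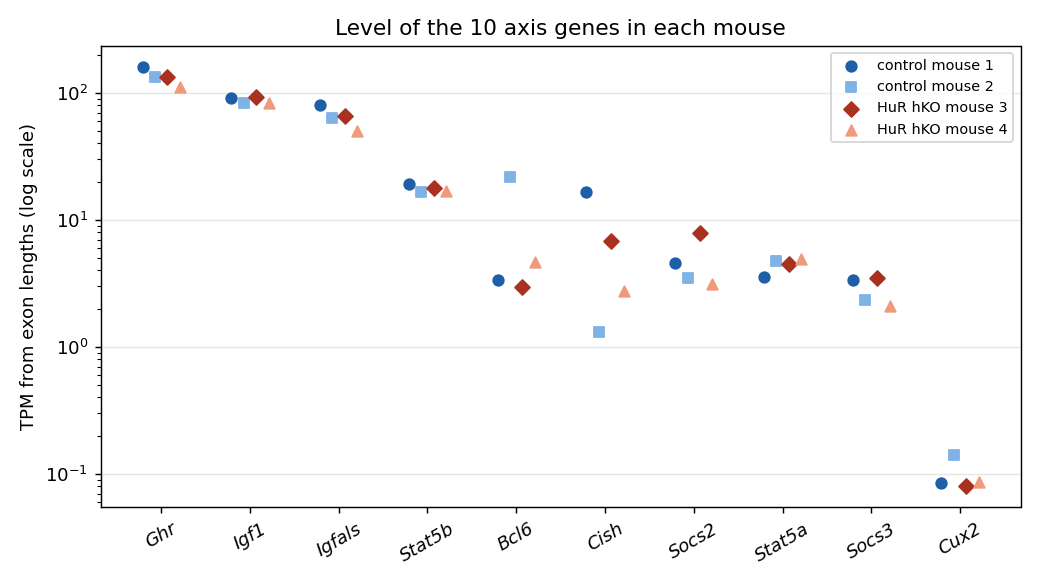
Level of the 10 axis genes in each of the 4 mice, in TPM computed from exon lengths, on a log axis; blue symbols are the control mice and red symbols the mice labelled HuR hKO. Ghr, Igf1, Igfals and Stat5b lie close together in the 4 mice, while Bcl6 and Cish spread over 8.07-fold and 11.8-fold in CPM.

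In TPM, which divides counts by exon length as well as by library size, the receptor was the most abundant member and Cux2 the least. The mean over the 4 mice was 134 TPM for Ghr, 88.1 TPM for Igf1 and 65.1 TPM for Igfals, and the ranges of these 3 over the mice did not overlap. Stat5b, the more abundant of the STAT5 genes in these libraries, had 17.6 TPM, and Stat5a had 4.42 TPM, with ranges apart from each other. The suppressors and Bcl6 lay in the same low range, with 8.18 TPM for Bcl6, 6.87 TPM for Cish, 4.75 TPM for Socs2 and 2.83 TPM for Socs3, and the ranges of these 4 over the mice overlapped. Cux2 had 0.0982 TPM.

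Ghr, the receptor (chromosome 15), had 633 and 567 CPM in control mice 1 and 2, and 526 and 490 CPM in mice 3 and 4. Both libraries labelled HuR hKO were below both controls on this scale, by a log2 fold change of -0.24 (SE 0.14, 95% interval -0.57 to 0.09, adjusted p = 0.75, edgeR). On the TPM scale the groups overlapped, with 160 and 133 TPM in the controls and 134 and 110 TPM in mice 3 and 4.

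Stat5b, the main STAT5 of the liver (chromosome 11), was level. It had 46.7 and 42.9 CPM in the controls and 42.5 and 46.0 CPM in mice 3 and 4, so that the groups overlapped. The log2 fold change was -0.02 (95% interval -0.32 to 0.28), which leaves room for a difference of the size seen for Ghr. Its neighbour Stat5a had 11.1 and 15.9 CPM in the controls and 13.7 and 17.3 CPM in mice 3 and 4. Mice 2 and 4 were the higher of each group, and the log2 fold change was 0.20 (SE 0.21, adjusted p = 0.86, edgeR). Stat5a and Stat5b are near copies of each other whose reads can be split, and exons of Stat5a overlap exons of Stat3 on the opposite strand. The sources used here do not say whether the counting used strand, so the Stat5a value is uncertain.

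Igf1, the hormone made by the liver under growth hormone (chromosome 10), varied least of the members. It had 398 and 391 CPM in the controls and 398 and 406 CPM in mice 3 and 4, a range of 1.04-fold over the 4 livers. The log2 fold change was 0.03 (SE 0.13, 95% interval -0.28 to 0.33, adjusted p = 0.98, edgeR). Of all genes tested, 92.8% had a larger or equal fold between the 2 controls than the 1.02-fold of Igf1. The groups did not overlap in CPM but did in TPM.

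Igfals encodes the acid-labile subunit, which holds IGF1 and an IGF binding protein together in a long-lived complex in blood (chromosome 17). Its level was 111 and 95.1 CPM in the controls and 89.6 and 78.5 CPM in mice 3 and 4, in the same order of mice as Ghr. Both libraries labelled HuR hKO were lower than both controls, with a log2 fold change of -0.30 (SE 0.14, 95% interval -0.62 to 0.03, unadjusted p = 0.0698, adjusted p = 0.68, edgeR). The log2 fold change was -0.19 without control mouse 1, -0.40 without control mouse 2, -0.41 without mouse 3 and -0.20 without mouse 4. On the TPM scale mouse 3, with 65.5 TPM, was above control mouse 2, with 63.7 TPM.

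**Figure D2:**
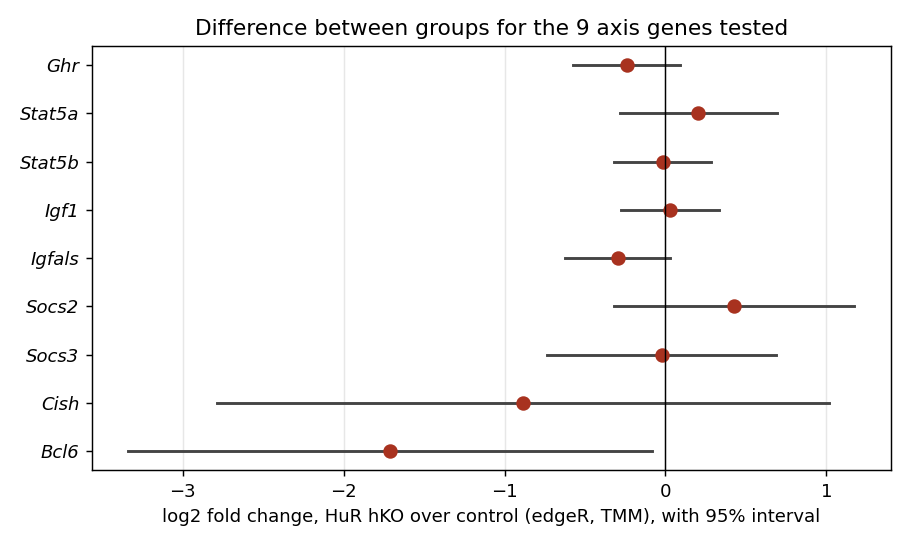
Log2 fold change of the 9 axis genes tested, libraries labelled HuR hKO over control (2 mice each), with 95% intervals from edgeR's quasi-likelihood fit. The interval of Bcl6 alone, -3.34 to -0.08, lies on 1 side of 0, and the intervals of Cish and Bcl6 are the widest of the 9.

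Socs2, a suppressor that limits signalling from the growth hormone receptor (chromosome 10), had 19.0 and 15.6 CPM in the controls and 32.3 and 14.6 CPM in mice 3 and 4. Mouse 3 stood above the others and mouse 4 was the lowest of the 4. The log2 fold change of 0.43 (SE 0.32, adjusted p = 0.82, edgeR) became -0.26 without mouse 3 and 0.90 without mouse 4. Between mice 3 and 4 the fold was 2.21, and 2.89% of all genes tested had a fold that large between these 2 mice. Socs3, induced above all by cytokines of the IL-6 family (chromosome 11), had 4.21 and 3.21 CPM in the controls and 4.40 and 2.97 CPM in mice 3 and 4. The groups overlapped, with a log2 fold change of -0.02 (95% interval -0.73 to 0.69) that rests on 43 to 63 counts a library.

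Cish, an early STAT5 target (chromosome 9), showed the widest spread of the members. It had 46.5 CPM in control mouse 1 and 3.96 CPM in control mouse 2, from 618 and 53 counts, and 18.9 and 8.65 CPM in mice 3 and 4. The controls were the highest and the lowest of the 4 livers, 11.8-fold apart, and the libraries labelled HuR hKO lay between them. A fold that large between the controls was found for 0.115% of all genes tested, where the median gene differed by 1.16-fold. The log2 fold change between groups was -0.89 (SE 0.83, 95% interval -2.79 to 1.02, adjusted p = 0.85, edgeR). It was 1.77 without control mouse 1 and -1.77 without control mouse 2 (adjusted p = 0.16 and 0.048, edgeR, and from 0.048 to 1.00 over all 13 alternatives), so that its direction rests on which control is read. With limma-voom and all 4 mice it was -0.13. The exons of Cish overlap Gm17040, a processed pseudogene on the opposite strand, which had at most 6 counts.

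Bcl6, the repressor that is more abundant in male liver (chromosome 16), had 9.86 CPM in control mouse 1 and 68.7 CPM in control mouse 2, and 8.51 and 15.3 CPM in mice 3 and 4. Control mouse 2 stood far above the other 3, and control mouse 1 lay between mice 3 and 4, so that the groups overlapped. The log2 fold change was -1.71 (SE 0.71, unadjusted p = 0.042, adjusted p = 0.64, edgeR), the largest among the members. With all 4 mice the unadjusted p was 0.30 in edgeR's robust test, 0.18 in limma-voom and 0.16 in DESeq2. Without control mouse 2 the log2 fold change was 0.29, and the low value in the group labelled HuR hKO rests on that 1 control. Exons of Bcl6 overlap Gm37419, a protein-coding gene on the opposite strand for which no count was used here. A fold between the controls of at least 6.97, as in Bcl6, was found for 0.300% of all genes tested. Cux2, its counterpart in female liver (chromosome 5), had 5 and 9 counts in the controls and 5 and 8 counts in mice 3 and 4, which is 0.35 to 0.67 CPM. It did not pass the filter and was not tested.

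The mouse that was lowest in Cish was the highest in Bcl6, and the controls also stood far apart in Onecut1 and Myc, 2 of 10 other genes that respond fast to growth hormone or to cytokines. In the other 8 the controls differed by 1.00-fold (Jun) to 1.66-fold (Ccnd1), and Ccnd1 was lowest in control mouse 1. Of the 10 genes outside the members, 1, Junb, passed an unadjusted p of 0.05, against 7.43% of all genes tested, and it was higher in both libraries labelled HuR hKO (15.1 and 14.3 CPM in the controls, 20.7 and 18.6 CPM in mice 3 and 4, log2 fold change 0.42, adjusted p = 0.57, edgeR). Onecut1, a hepatocyte transcription factor that growth hormone induces, had 70.3 and 9.03 CPM in the controls and 27.7 and 7.54 CPM in mice 3 and 4. Its controls were 7.78-fold apart, a fold that 0.246% of genes reached, with control mouse 1 on top and mouse 3 second, as for Cish. Myc, a growth regulator, had 5.42 and 1.19 CPM in the controls and 1.81 and 2.34 CPM in mice 3 and 4, again with control mouse 1 highest and control mouse 2 lowest. Egr1, an early gene, had 4.52 and 5.15 CPM in the controls and 4.26 and 2.87 CPM in mice 3 and 4, and control mouse 2 was its highest.

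**Figure D3:**
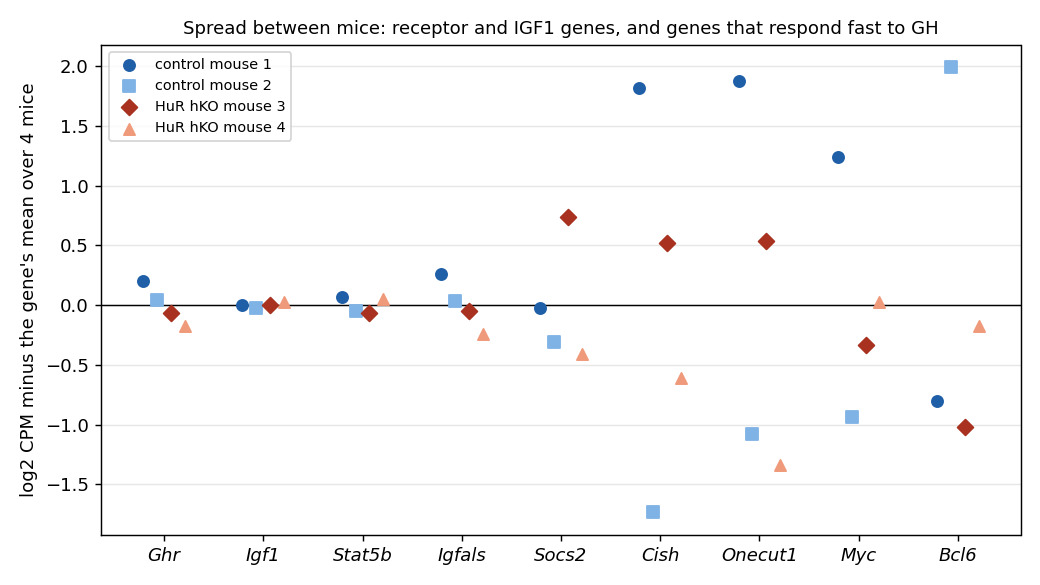
Level of each gene in each mouse as log2 CPM minus the mean of the gene over the 4 mice. Ghr, Igf1, Stat5b and Igfals stay near 0 in every mouse, Cish, Onecut1 and Myc are highest in control mouse 1, and Bcl6 is highest in control mouse 2.

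Of 5 bile duct markers, 3 were also highest in control mouse 1, and their part in these values was not tested. Krt19, a keratin of bile duct cells, had 12.2 and 0.373 CPM in the controls and 0.488 and 1.81 CPM in mice 3 and 4. Krt7 and Epcam were highest in control mouse 1 too, with 2.63 and 3.61 CPM, whereas Sox9 had 2.56 CPM there, the lowest of the 4. Spp1, the fifth, had 31.5 and 22.3 CPM in the controls and 34.8 and 41.9 CPM in mice 3 and 4, and was the 1 of 4 tested that passed an unadjusted p of 0.05, as higher in the libraries labelled HuR hKO. The 5 bile duct markers summed to 52.5 and 27.5 CPM in the controls and to 39.6 and 49.8 CPM in mice 3 and 4. Onecut1 is expressed in bile duct cells as well as in hepatocytes. The labels give no time of day, feeding state or interval from the last pulse of growth hormone.

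Of 22 further genes of receptor signalling, 21 were tested, none was higher and 2 were lower at an unadjusted p under 0.05, which is 9.52% against 7.43% of all genes tested. Their median log2 fold change was -0.07, against 0.00 over all genes tested. Among those that passed, Socs6, a relative of the suppressors, had 16.2 and 13.2 CPM in the controls and 10.6 and 11.0 CPM in mice 3 and 4 (log2 fold change -0.44, adjusted p = 0.61, edgeR), and did not pass when mouse 1, 3 or 4 was left out. Among the genes that did not pass, the adaptor Grb10 had a log2 fold change of -0.41, the JAK2 adaptor Sh2b1 of -0.25 and the STAT inhibitor Pias3 of -0.24.

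Among the further genes of the IGF system, 1 of the proteins that carry IGF1 passed the threshold. Of 15 genes, 9 were tested, and 1 was higher and 0 lower at an unadjusted p under 0.05, or 11.1% against 7.43% of all genes tested, and the median log2 fold change was 0.17. Igfbp3, which carries IGF1 in blood in the complex with the acid-labile subunit, had 17.2 and 16.8 CPM in the controls and 23.9 and 24.7 CPM in mice 3 and 4. The groups lay apart, with little spread within each (log2 fold change 0.52, SE 0.14, unadjusted p = 0.00498, adjusted p = 0.40, edgeR). Igfbp3 is made mainly by cells of the liver other than hepatocytes. The summed level of 6 endothelial markers was 179 and 158 CPM in the controls and 206 and 186 CPM in mice 3 and 4, and that of 6 Kupffer cell markers 136 and 140 CPM in the controls and 161 and 148 CPM in mice 3 and 4. None of these 12 passed an unadjusted p of 0.05. The fitted fold was above 0 on the log2 scale for 6 of 6 endothelial and 4 of 6 Kupffer cell markers. The 6 stellate cell markers summed to 161 and 162 CPM in the controls and to 169.7 and 210.4 CPM in mice 3 and 4, 5 of 6 had a fitted fold above 0 on the log2 scale, and 1, Col1a1, passed as higher (log2 fold change 0.63). The part of these cells in the Igfbp3 value was not tested. Igfbp1, a binding protein that rises in fasting, had 22.7 and 24.4 CPM in the controls, 24.4 CPM in mouse 3 and 44.5 CPM in mouse 4, and did not pass (log2 fold change 0.55, unadjusted p = 0.0588, edgeR). Igfbp5 and Igfbp6 had log2 fold changes of 0.42 and -0.23 and did not pass either. Igf1r, the IGF1 receptor, had 6 to 12 counts a library and was not tested.

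Of the genes whose level depends on sex and growth hormone pulses, those that passed the threshold were mostly lower if male-biased and mostly higher if female-biased. Of 24 male-biased genes tested of 25, 1 was higher and 9 were lower, and the list had a median of -0.44 on the log2 fold scale. Of 18 female-biased genes tested of 30, 7 were higher and 1 was lower, and the median was 0.49. Together these are 10 of 24 and 8 of 18, or 41.7% and 44.4%, against 7.43% of all genes tested. The filter kept Cyp2a4, with 11 and 7 counts in the controls, through its 403 and 200 counts in mice 3 and 4. Genes kept through 1 group can add to these shares. With at least 10 counts asked in every sample, which drops Cyp2a4, 5 female-biased genes were higher and 0 lower among fewer genes tested. Cyp2b13, like Cyp2a4, had a value in only 12 of the 13 alternatives. No gene of either list had an adjusted p under 0.05. The lists were written with earlier results for some of these genes known, so the counts describe the lists and do not test them.

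Among the male-biased genes, C6, a complement component, had 209 and 145 CPM in the controls and 99.6 and 79.1 CPM in mice 3 and 4, below both controls (log2 fold change -0.99, SE 0.20, adjusted p = 0.20, edgeR). Ugt2b38 and Ugt2b1, which conjugate steroids and drugs, had log2 fold changes of -1.21 and -0.44. Susd4, a membrane regulator of complement, had -0.67, the transporter Slco1a1 had -0.66 and the fatty acid hydroxylase Cyp2u1 had -0.56. The major urinary proteins went both ways. Mup11 had 1083 and 1101 CPM in the controls and 396 and 784 CPM in mice 3 and 4, whereas Mup21 had 85.3 and 60.0 CPM in the controls and 158.9 and 105.0 CPM in mice 3 and 4. The Mup and Ugt2b genes are near copies, between which reads can be split. Among the male-biased genes that did not pass, Cyp2d9, Cyp4a12a, Cyp4a12b and Mup3 had log2 fold changes of -0.06, -0.08, 0.01 and -0.04. Of the 24 tested, 20 had a fitted log2 fold change below 0 and 4 above 0. The summed level of the 25 genes was 26009 and 23305 CPM in the controls and 22008 and 22998 CPM in mice 3 and 4.

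Among the female-biased genes, the steroid hydroxylase Cyp2a4 had 0.828 and 0.523 CPM in the controls and 28.1 and 10.6 CPM in mice 3 and 4 (log2 fold change 4.81, SE 0.57, adjusted p = 0.064, edgeR). The cytochromes Cyp2b13 and Cyp2b9 had log2 fold changes of 2.40 and 1.52, the lipid hydroxylase Cyp4a14 of 1.33 and the transporter Slc22a27 of 1.75. The proton pump subunit Atp6v0d2 had 1.43 and the transcriptional cofactor Trim24 had 0.46. Cyp2c40 was the 1 that was lower, with -1.38, from 5 to 30 counts a library. Cyp2a4 and the Cyp2b and Cyp2c genes have near copies that can share reads. Other genes that mark the female liver stayed near the floor in every library. A1bg and Cyp3a41b had 0 counts in all 4, which allows up to 0.226 CPM, Sult2a1 had at most 1 count and Hao2 at most 4.

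**Figure D4:**
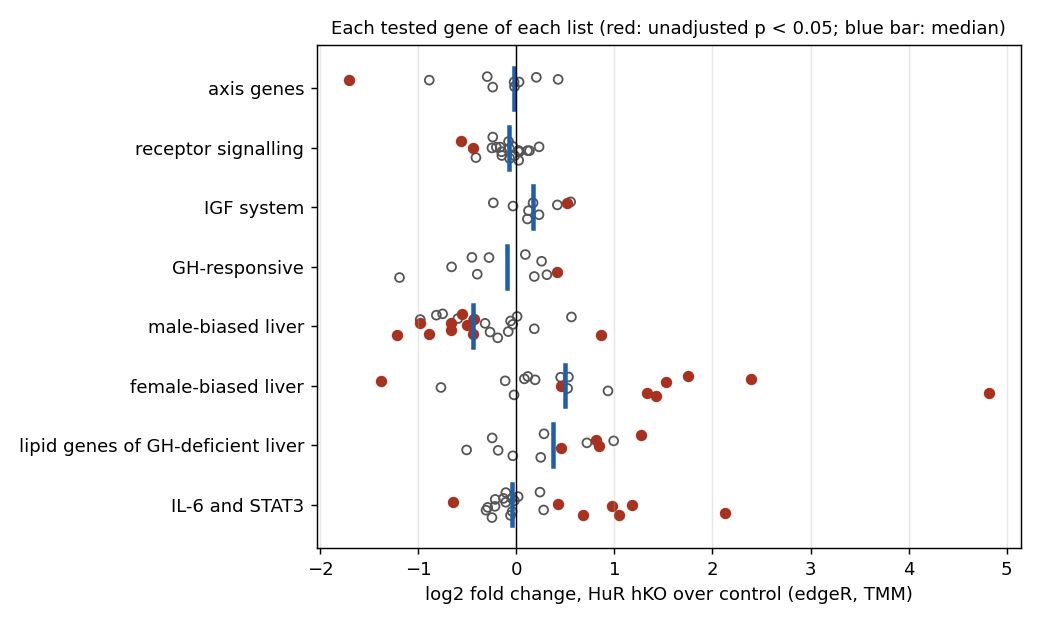
Log2 fold change of every tested gene of the axis and of 7 further lists, libraries labelled HuR hKO over control; red points have an unadjusted p under 0.05 in edgeR's test, open points do not, and blue bars are medians. The axis genes and the receptor genes have medians of -0.02 and -0.07, the male-biased genes -0.44 and the female-biased genes 0.49.

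Loss of hepatic growth hormone signalling is known to come with a fatty liver, and 12 lipid genes linked to it were measured. Of these, 4 were higher and 0 lower at an unadjusted p under 0.05 (33.3%, against 4.04% higher and 3.39% lower of all genes tested), and the median on the log2 fold scale was 0.37. Lpl, a lipase that releases fatty acids from lipoproteins, had 21.6 and 27.5 CPM in the controls and 66.1 and 52.4 CPM in mice 3 and 4 (log2 fold change 1.27, SE 0.18, adjusted p = 0.092, edgeR). The enzymes of fatty acid synthesis Fasn, Acly and Acaca had log2 fold changes of 0.85, 0.81 and 0.46. In CPM the groups did not overlap for each of them, which held for 38.1% of all genes tested. Over the 12 lipid genes the groups lay apart as higher for 6 and as lower for 2. Mogat1 and Vldlr had 0.99 and 0.72 and Pparg had -0.51, and these 3 did not pass.

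STAT3 shares Socs3 as a suppressor with the growth hormone receptor and drives the acute phase response to IL-6. Of 22 genes of that response, 6 were higher and 1 lower at an unadjusted p under 0.05 (31.8%, against 4.04% higher and 3.39% lower of all genes tested), and the median was -0.04. The 6 were Saa1, Saa2 and Saa3, Lcn2, Orm2 and Hp, with log2 fold changes of 1.05, 0.97, 1.18, 2.13, 0.69 and 0.43 and adjusted p-values of 0.092 or more (edgeR). They encode secreted acute phase proteins, and the Saa genes are near copies. Lifr, a receptor of the IL-6 family, was lower, with -0.64, and Hamp, the iron hormone, had -0.31 and did not pass. Stat3 itself had 70.2 and 60.8 CPM in the controls and 65.2 and 68.0 CPM in mice 3 and 4, with overlapping groups.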

How the data were processed

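Liver RNA of 4 mice, 2 a group, was sequenced, and the authors deposited raw read counts per Ensembl gene, with no normalization. The submitters' processing notes name RSEM and GRCm38, and the counting tool's settings, the aligner, its annotation and its use of strand are not given in the sources used here. All deposited values were whole counts. Of 46603 identifiers, 46005 were matched to symbols in GENCODE M21 and the others held at most 0.0722% of a library. Groups were taken from the sample titles. No 2 libraries agreed within sampling noise (chi-square per degree of freedom 23.0 to 35.7), so each was counted as 1 replicate.

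Counts were filtered with edgeR's filterByExpr (minimum count 10, minimum total 15), scaled by TMM (factors 0.957 to 1.04) and compared with the quasi-likelihood test of edgeR 4.0.16 (limma 3.58.1, R 4.3.3), with Benjamini-Hochberg adjustment over 13001 genes. All edgeR p-values are two-sided. An exact permutation test of 2 against 2 cannot give a p under 0.333. TPM used the summed exon length of GENCODE M21. Levels are CPM on TMM-scaled library sizes, and limits for a count of 0 (3 counts) cover counting error only. In simulated data with 13001 genes, 62.1% of genes changed 2-fold and 96.6% of genes changed 4-fold were recovered at an adjusted p under 0.05. The simulated spread came from the dispersions that edgeR fitted, so these shares need not hold for the real libraries. In the real libraries 3 of 13001 genes passed that threshold.

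The members and the lists were chosen with earlier results of these data known. All members are named with each mouse's value, and from each other list the genes with an unadjusted p under 0.05 (up to 8, smallest p first) and up to 3 others with the largest fold change. A gene that this rule covers is not reported here. Cell type markers, genes named for their low counts and male-biased genes named for small folds fall outside that rule and were chosen after their values were seen. Alternatives were DESeq2 and upper quartile factors, plain totals, no scaling, no filter, 10 counts in every sample, DESeq2 1.42.0, limma-voom, the robust test, and leaving out each mouse. Python 3.11.15, pandas 2.3.3, numpy 2.4.6, scipy 1.17.1 and matplotlib 3.10.9 were used.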

Additional observations from a re-analysis of the deposited data

How the results depend on the processing

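The folds of the members, Elavl1 and the named list genes, the list counts and medians, and the counts over all genes were computed under 13 alternatives. TPM values, marker sums, motif counts and the male-biased genes named for small folds were not. No paired analysis was possible because the mice are numbered 1 to 4 and the groups share no number. Without any scaling for library size the median log2 fold change of all genes was 0.31, and values in this setting are relative to that shift. Ghr then had 0.067, Stat5b 0.30, Igfals 0.0058 and Socs3 0.26, and Bcl6 -1.36 (adjusted p = 0.00053, edgeR, the smallest of Bcl6 over the alternatives, of which the largest was 1.00). Without scaling, 1 member was higher and 2 lower, and the medians were 0.26 for the members, 0.24 for receptor signalling, 0.48 for the IGF system, 0.20 for the fast responding genes, -0.13 and 0.82 for the male-biased and female-biased genes, 0.67 for the lipid genes and 0.28 for the IL-6 genes. In the same setting, 0 receptor genes, 1 fast responding gene, 2 male-biased genes, 0 female-biased genes and 0 IL-6 genes were lower, and 3 IGF genes, 2 fast responding genes and 11 female-biased genes were higher. Without the filter Bcl6 had -1.72 (adjusted p = 0.031, edgeR), 2 IGF genes and 2 male-biased genes were higher, and 1 fast responding, 14 male-biased and 1 lipid gene were lower. With DESeq2, 0 members, 1 receptor gene and 0 female-biased genes were lower, and 2 IGF genes, 0 fast responding genes and 2 male-biased genes were higher. With limma-voom and with the robust test 0 members were lower, and with limma-voom 2 male-biased genes were higher. With plain totals 2 IGF genes were higher, and with 10 counts in every sample 0 female-biased genes were lower. Over all genes, the 3 with an adjusted p under 0.05 became 8 with plain totals, 155 without scaling, 161 without the filter, 85 with DESeq2 and 8 with the robust test, and the 966 with an unadjusted p under 0.05 became 1466 without the filter and 575 with DESeq2. Without control mouse 1, control mouse 2, mouse 3 and mouse 4 the 3 became 43, 73, 0 (of 777 with an unadjusted p under 0.05, edgeR) and 7, and without mouse 4 the 966 became 566.

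Leaving out each mouse in turn gave ranges of -0.046 to 0.49 for Stat5a, -0.077 to 0.032 for Stat5b, -0.26 to 0.90 for Socs2, -0.34 to 0.24 for Socs3, -1.77 to 1.77 for Cish (1.77 without control mouse 1) and -2.53 to 0.29 for Bcl6 (0.29 without control mouse 2). The lone mouse of a group is then assumed to vary like the others. Counts of members lower ranged from 0 to 2 and of members higher from 0 to 1, with medians of -0.31 to 0.028. Receptor genes lower ranged from 0 to 2 (medians -0.21 to -0.060), IGF genes higher from 1 to 3 (0.052 to 0.21), fast responding genes higher from 0 to 1 and lower from 0 to 2 (-0.25 to 0.15). Male-biased genes higher ranged from 0 to 2 and lower from 7 to 13 (-0.49 to -0.26), female-biased genes lower from 0 to 1 and higher from 5 to 10 (0.10 to 0.80), lipid genes lower from 0 to 1 (0.34 to 0.55) and IL-6 genes lower from 0 to 2 (-0.055 to 0.077). Of 31 named list genes past an unadjusted p of 0.05, none turned direction and 15 stayed past it in every alternative that tested them (C6, Ugt2b38, Igfbp3, Cyp2a4, Cyp2b13, Cyp2b9, Slc22a27, Cyp4a14, Lpl, Acly, Fasn, Saa1, Saa2, Saa3 and Lcn2). For Cyp2a4 and Cyp2b13 only 12 of the 13 alternatives gave a value. Among those not past it, Sh2b1 and Pias3 had 0.063 and 0.064 and Igfbp6 0.11 without scaling, and leaving out each mouse gave -0.68 to 0.061 for Igfbp6 (0.061 without mouse 3), -2.41 to 0.93 for Onecut1 and -1.37 to 0.79 for Myc (0.93 and 0.79 without control mouse 1) and -1.21 to 0.24 for Hamp (0.24 without mouse 4). Igf1 kept its direction in all 13 alternatives. Detection of differences as small as those of Ghr and Igfals was not tested on simulated data. The cause of the changes between settings was not tested.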
